A study of Triticum turgidum subsp. durum with 24 samples.

Results

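Endosperm of durum wheat (Triticum turgidum subsp. durum, variety Kronos, wild type) at 8 days post anthesis (dpa) was compared with endosperm at 6 dpa across all genes. The comparison took the 3 libraries labelled 8 dpa and the 3 labelled 6 dpa, which were 6 of the 24 libraries of a time course of 8 timepoints. All plants were untreated and grown in controlled environment rooms, so age was the only labelled difference between the groups. Each replicate pooled 6 dissected endosperms of a spike from an independent plant, its RNA was poly-A selected, and some plants gave spikes to more than 1 timepoint. In bulk tissue, fewer cells of a type and less RNA per cell cannot be told apart.

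Starch is laid down in the amyloplasts of the starchy endosperm. ADP-glucose pyrophosphorylase (AGPase), which in cereal endosperm is mainly a cytosolic enzyme, makes ADP-glucose, and the Brittle1 (BT1) transporter brings it into the amyloplast. There, starch synthases extend the chains, branching enzymes and isoamylases shape amylopectin, and granule-bound starch synthase makes amylose. At the ages compared the wheat endosperm is passing from cell division and differentiation to the filling of its cells.

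Levels are the deposited TPM, the abundance of a transcript scaled by its length and by the total of its library, and changes are log2 fold changes of 8 dpa minus 6 dpa with their standard errors. A differentially expressed gene (DEG) had an FDR of at most 0.05 in edgeR's quasi-likelihood test (adjusted p over all genes tested) and a change of more than 1.5-fold. The estimated counts summed to 71616133, 60082585 and 68580119 in the 8 dpa libraries and to 62471662, 61471870 and 63531377 in the 6 dpa libraries. Of the 66559 transcripts listed, 44240 were tested.

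Between 8 and 6 dpa, 1356 genes were DEGs, 3.07% of the genes tested. Of these, 1135 rose (2.57% of the genes tested) and 221 fell (0.500%). The median log2 fold change was 1.53 among the genes that rose and -2.09 among those that fell, while over all genes tested it was 0.0019. A change of at least 4 on the log2 scale was seen in 166 DEGs that rose and 26 that fell. The plot of change against level shows that the rises reached further than the falls, up to a gene without any count at 6 dpa.

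**Figure D1:**
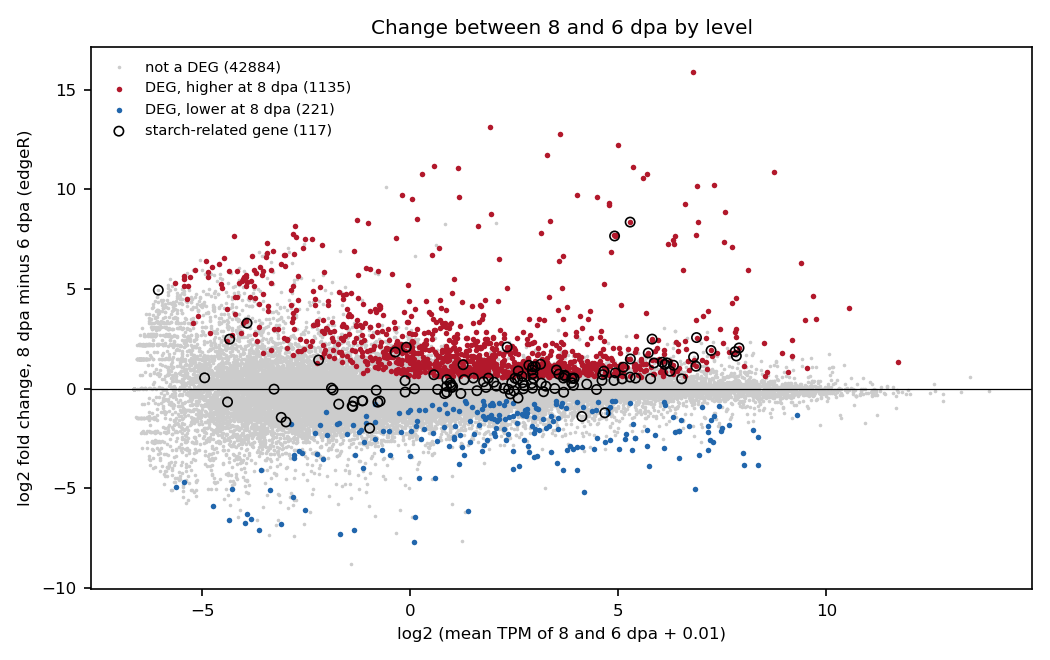
Each point is a gene tested, with its mean TPM over 8 and 6 dpa on the x axis (log2, 0.01 added) and its log2 fold change of 8 dpa minus 6 dpa on the y axis. Red points are the 1135 DEGs higher at 8 dpa, blue points the 221 DEGs lower at 8 dpa, grey points the other 42884 genes, and rings mark the 117 starch-related genes tested, most of which lie above 0.

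The share of falls differed with the libraries in the model and with the tool. When the model held only the 6 libraries of the comparison in place of all 24, 1135 genes rose and 795 fell, so that 58.8% of DEGs rose, against 83.7% in the model of all libraries. Of the DEGs of the 24-library model, 775 of the rises and 165 of the falls were also called with the 6 libraries, and no gene was called in the opposite direction. DESeq2 with all libraries called 1636 rises and 696 falls, so that 70.2% of its DEGs rose. The model of 6 libraries also estimated scaling and spread anew, and which step moved the share was not tested.

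Single libraries weighed on these counts. With 8 dpa replicate 2 left out the DEGs numbered 598, and with 6 dpa replicates 2 or 3 left out they numbered 679 and 727. The genes that fell numbered 95, 61 and 113 when 8 dpa replicates 1, 2 and 3 were left out in turn, and 430, 108 and 85 when those of 6 dpa were. The genes that rose numbered 537 with 8 dpa replicate 2 left out and 571 and 642 with 6 dpa replicates 2 or 3 left out.

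Most of the genes that rose were highest in the same 8 dpa library. Of the 1135 genes that rose, 918 were highest in 8 dpa replicate 2, 128 in replicate 1 and 89 in replicate 3. The same count was not made over all genes tested. The summed TPM of the genes that rose was 35700, 66400 and 37200 in 8 dpa replicates 1, 2 and 3, against 13400, 10700 and 10400 at 6 dpa. The genes that fell summed to 2320, 2390 and 2800 TPM at 8 dpa, against 7130, 12100 and 12900 at 6 dpa. Within 6 dpa, replicate 1 stood nearest to 8 dpa for these genes, since only 6 of the 221 genes that fell were highest in it, against 116 in replicate 2 and 99 in replicate 3. Over all genes tested, the log CPM of 6 dpa replicate 1 had a Pearson r of 0.961 to 0.966 with the 8 dpa libraries, against 0.944 to 0.951 for 6 dpa replicate 2 and 0.931 to 0.939 for 6 dpa replicate 3. These correlations run across genes, which are not independent replicates.

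The labelled tissue was checked against markers. All 10 starchy endosperm markers, which are also among the starch-related genes described here (GBSS1, AGPS1, cAGPL, BT1.1 and SBE2b copies) were detected at both ages, and together they held 0.192%, 0.281% and 0.151% of TPM in the 8 dpa libraries, against 0.0718%, 0.0502% and 0.0432% in the 6 dpa libraries. The 5 genes taken as markers of pericarp and vegetative tissue (GBSS2-B1, pAGPL and SS2b copies) held 0.00258%, 0.00332% and 0.00211% at 8 dpa, against 0.00125%, 0.00118% and 0.00144% at 6 dpa. They are also starch-related genes, and the study names only GBSS2 for those tissues. The mean of pAGPL-A1, the most abundant of them at 8 dpa with 12.4 TPM, reached 27.5 TPM at 13 dpa. Their sum therefore cannot measure the part of other tissues. Of these 5 genes, the pAGPL copies rose, GBSS2-B1 was higher without passing the test (log2 fold change 0.94, edgeR adjusted p = 0.088), and the SS2b copies stayed below 1 TPM in every library. The part of other tissues in the results was not tested.

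Starch-related genes were those of the study's list, which it divided by role into 8 categories. Of the 118 genes, 117 were tested, 18 rose and none fell in edgeR. The share that rose was 15.4%, against 2.57% of all genes tested, and the median log2 fold change was 0.45, against 0.0 over all genes. At an unadjusted p under 0.05, 50 of the genes were higher at 8 dpa and 6 lower, where 10.4% and 6.19% of all genes tested were. DESeq2 called 28 rises and 1 fall, and edgeR with only the 6 libraries called 28 rises and 3 falls, which were BAM5.1-A1, BAM5.1-B1 and BAM3-B1. In TPM, 54 of the 118 genes were higher in every 8 dpa library than in any 6 dpa library, and 7 were lower, where the genes tested gave 12.2% and 7.71%. All 18 genes that rose were highest in 8 dpa replicate 2, and 15 of them were lowest in 8 dpa replicate 3. The starch-related rises numbered 9 when 8 dpa replicate 2 was left out and 10 and 11 when 6 dpa replicates 2 or 3 were, and none fell in these fits.

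Together the starch-related genes held 0.372%, 0.508% and 0.29% of TPM at 8 dpa, against 0.169%, 0.157% and 0.15% at 6 dpa. The groups did not overlap, and the ratio of their means was 2.46 (exact permutation test, two-sided, p = 0.1, the smallest that 3 against 3 libraries can give). Measured on estimated counts, the share was 1.45% ± 0.309 at 8 dpa and 0.678% ± 0.116 at 6 dpa (SD, n = 3 each).

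**Figure D2:**
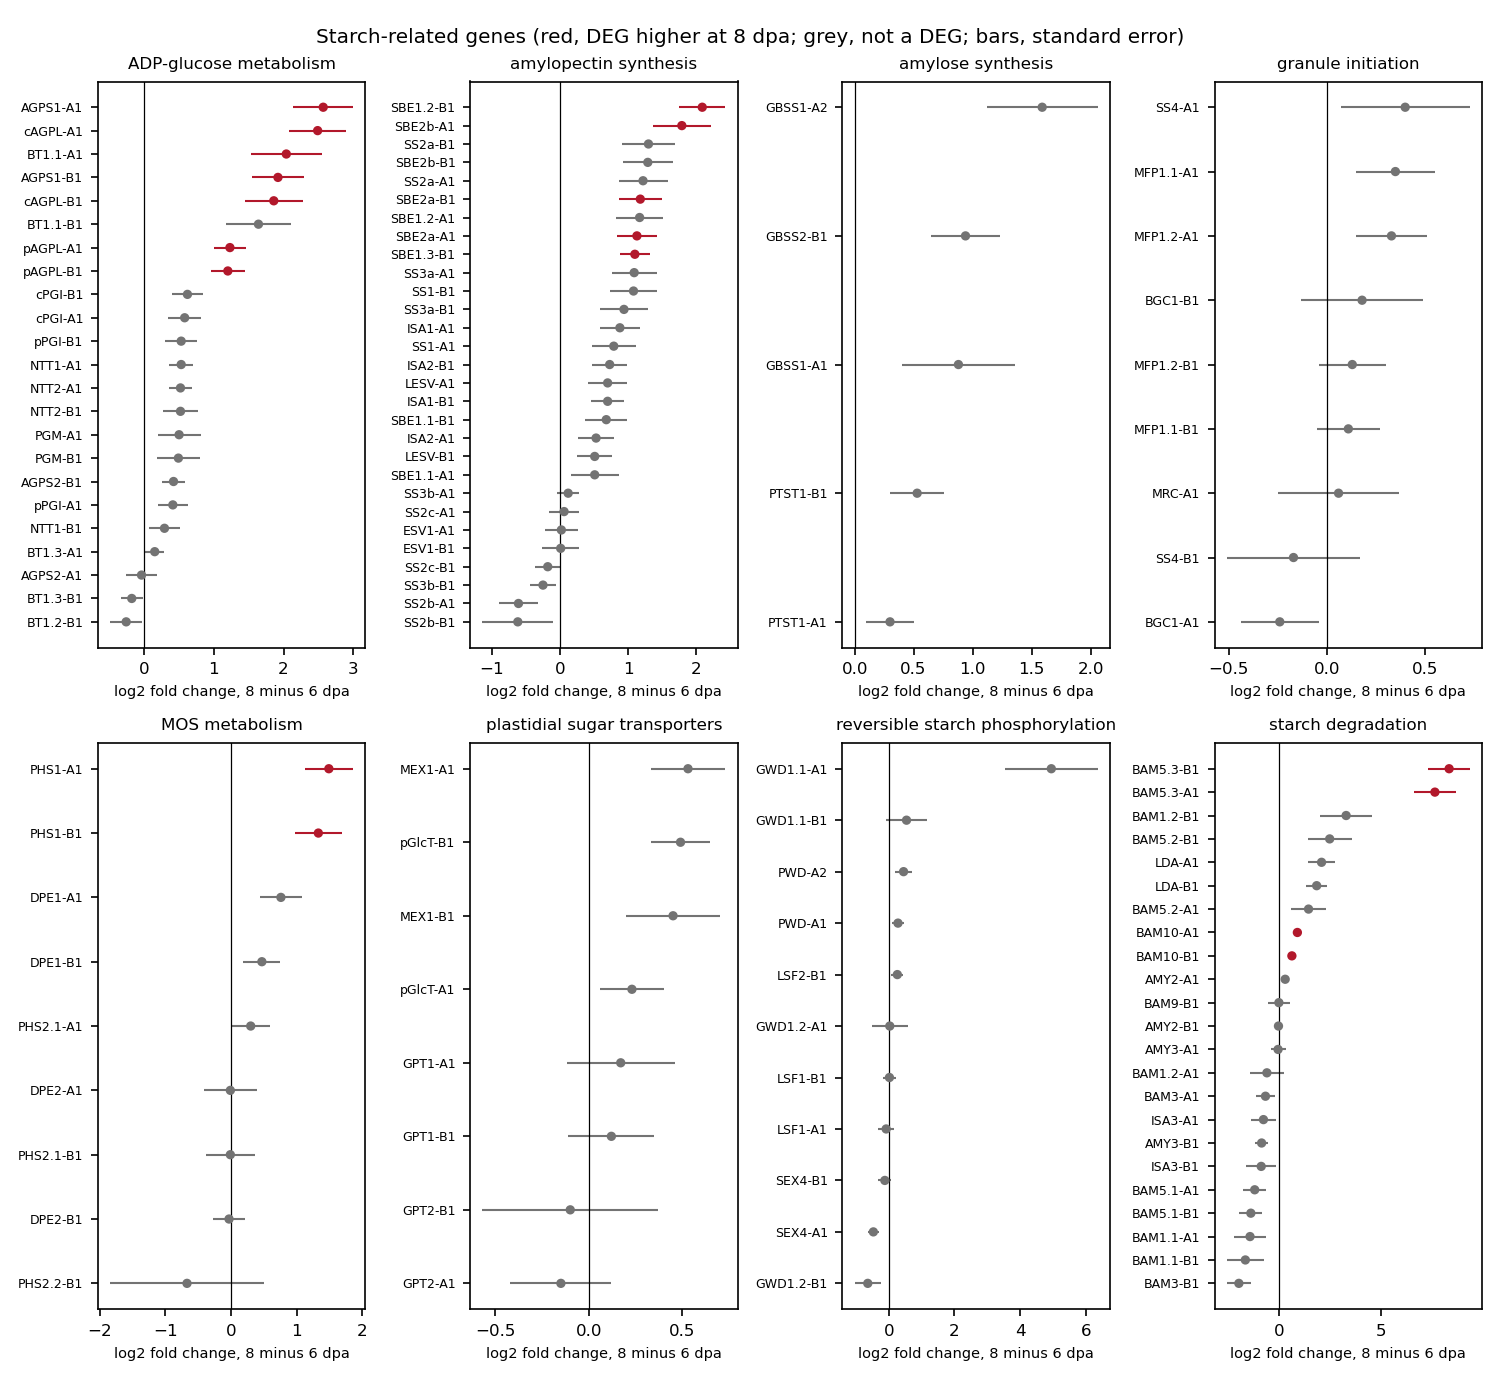
Each row is a starch-related gene tested, and the x axis is its log2 fold change of 8 dpa minus 6 dpa from edgeR with its standard error as a bar, on a scale of its own in each of the 8 categories. The 18 DEGs, in red, lie in ADP-glucose metabolism, amylopectin synthesis, maltooligosaccharide (MOS) metabolism and starch degradation, and the other genes, in grey, did not pass the test.

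ADP-glucose metabolism had the largest share of DEGs among the starch categories, with 7 of 23 genes rising and none falling in edgeR. Of all genes tested, 2.57% rose and 0.500% fell. At an unadjusted p under 0.05, 15 genes of the category were higher at 8 dpa and 0 lower, against 10.4% and 6.19% of all genes tested. DESeq2 called 8 rises and 0 falls in the category. The category held 0.211% ± 0.0581 of TPM at 8 dpa and 0.0727% ± 0.0107 at 6 dpa (SD, n = 3 each; exact permutation test, two-sided, p = 0.1).

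AGPS1 is the small subunit of the cytosolic AGPase. AGPS1-A1 (chromosome 7A, 339999400 to 340007286 on Svevo.v1, like all positions here) had 177, 293 and 142 TPM in the 8 dpa libraries, against 44.2, 23.6 and 27.3 TPM in the 6 dpa libraries. It rose by a log2 fold change of 2.57 (standard error 0.43, edgeR adjusted p = 0.00133). Its B copy AGPS1-B1 (chromosome 7B, 280072868 to 280079456) had 210, 339 and 174 TPM at 8 dpa, against 78, 49.8 and 50.1 TPM at 6 dpa, and rose by 1.92 (standard error 0.37, edgeR adjusted p = 0.0049). For both copies every 8 dpa library lay above every 6 dpa library, and 8 dpa replicate 2 and 6 dpa replicate 1 were the highest of their ages.

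The large subunit of the same enzyme, cAGPL, moved with it. cAGPL-A1 (chromosome 1A, 568598200 to 568601533) had 73.6, 155 and 60.5 TPM at 8 dpa, against 18.5, 14.6 and 15.4 TPM at 6 dpa (log2 fold change 2.49, standard error 0.41, edgeR adjusted p = 0.00129). The more abundant B copy, cAGPL-B1 (chromosome 1B, 659062231 to 659065515), had 304, 518 and 244 TPM at 8 dpa, against 105, 92.1 and 82.2 TPM at 6 dpa, a rise of 1.86 (standard error 0.42, edgeR adjusted p = 0.0152). Leaving out 8 dpa replicate 2 or 6 dpa replicates 2 or 3 took cAGPL-B1 above the FDR threshold, while the calls of cAGPL-A1 and AGPS1 held without any single library.

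The BT1.1 copies and cAGPL-B1 had the highest TPM of this category at 8 dpa. BT1.1-A1 (chromosome 6A, 187680263 to 187681741) had 387, 490 and 301 TPM at 8 dpa, against 140, 61.3 and 55.4 TPM at 6 dpa, and rose by 2.04 (standard error 0.51, edgeR adjusted p = 0.0275). The spread at 6 dpa came from replicate 1, which had more than the other 6 dpa libraries, yet the ages did not overlap. BT1.1-B1 had 359, 426 and 272 TPM at 8 dpa, against 141, 101 and 73.1 TPM at 6 dpa, and its log2 fold change of 1.64 fell just short of the threshold (standard error 0.47, edgeR adjusted p = 0.0599). Without 6 dpa replicate 1 it was called, at an edgeR adjusted p of 0.0215, and over all alternatives its adjusted p ran between 9.55e-07 and 0.251. The call of BT1.1-A1 was lost without 8 dpa replicates 1 or 2 or 6 dpa replicates 2 or 3.

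The large subunits of the plastidial AGPase rose at a far lower level. pAGPL-A1 had 11.5, 15.3 and 10.4 TPM at 8 dpa, against 5.58, 4.45 and 5.24 TPM at 6 dpa (log2 fold change 1.23, standard error 0.23, edgeR adjusted p = 0.0031). pAGPL-B1 had 2.78, 4.43 and 2.92 TPM at 8 dpa, against 1.46, 1.6 and 1.21 TPM at 6 dpa (log2 fold change 1.2, standard error 0.24, edgeR adjusted p = 0.00588), a call that was lost without 8 dpa replicate 2. Their partner, the small subunit gene AGPS2, did not pass the test in either copy, with log2 fold changes of -0.04 for AGPS2-A1 and 0.42 for AGPS2-B1 (edgeR adjusted p = 0.963 and 0.168). The enzymes that interconvert hexose phosphates, PGM and PGI, and the plastidial nucleotide transporters NTT1 and NTT2 were all measured somewhat higher at 8 dpa, with log2 fold changes between 0.29 for NTT1-B1 and 0.62 for cPGI-B1, and none passed. BT1.2-B1 and the BT1.3 copies had log2 fold changes between -0.26 and 0.15.

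**Figure D3:**
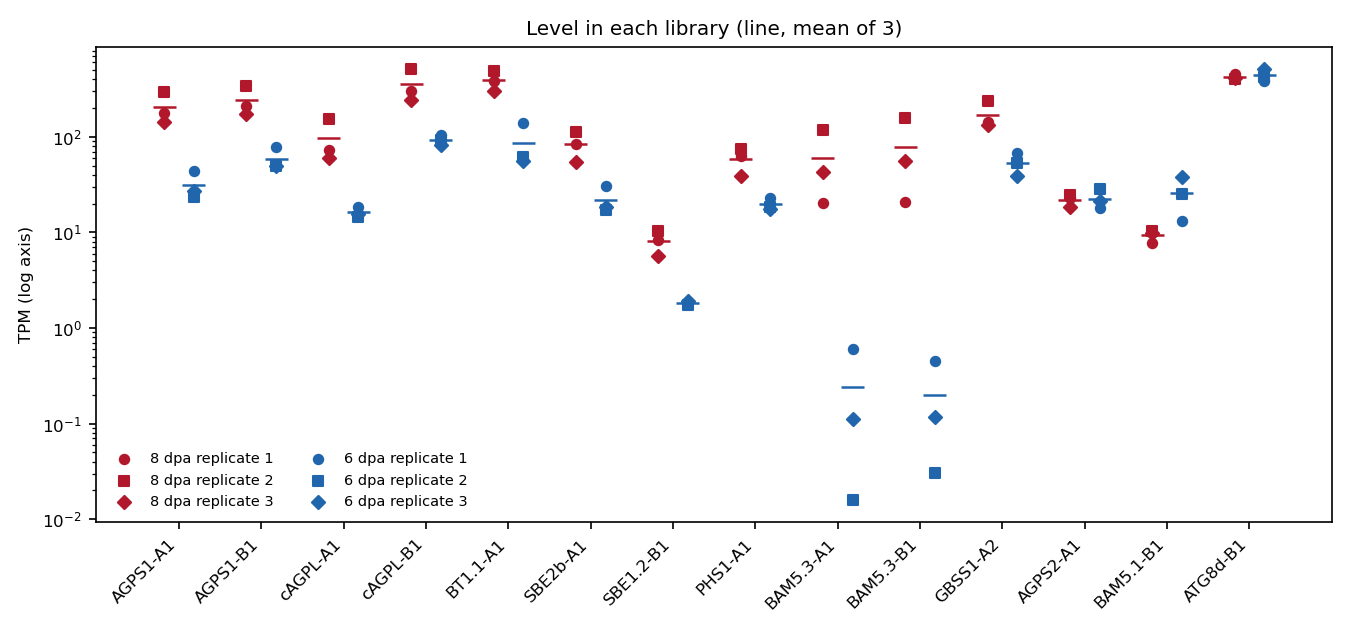
The y axis is TPM on a log scale and each symbol is a library, with 8 dpa in red left of 6 dpa in blue for each gene, replicates by shape, and a line at the mean of 3. AGPS1, cAGPL, BT1.1-A1, SBE2b-A1, SBE1.2-B1, PHS1-A1, GBSS1-A2 and both BAM5.3 copies had every 8 dpa library above every 6 dpa library, BAM5.1-B1 lay the other way, and AGPS2-A1 and ATG8d-B1 overlapped.

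The study checked some of these genes by qRT-PCR, and its primers for AGPS1 and BAM5.3-A1 are shown, 5′ to 3′, because AGPS1-A1 and BAM5.3-A1 were among the transcripts with the largest rises of their categories. The AGPS1 pair was taken by the study from earlier work and does not separate the homeologs, while the BAM5.3-A1 pair was designed for that copy. They were not matched to a genome here.
AGPS1_F: acacacaacctcgacacttg
AGPS1_R: tgccacctttttcagcaagg
BAM5.3-A1_F: ctgcttacaacaccatactcaggaatgca
BAM5.3-A1_R: ccaccaactgattcaacagccgg

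In amylopectin synthesis, 5 of 29 genes rose and none fell in edgeR, and all 5 encode starch branching enzymes, which form the branch points of amylopectin. Of all genes tested, 2.57% rose and 0.500% fell. At an unadjusted p under 0.05, 18 genes of the category were higher at 8 dpa and 1 lower, against 10.4% and 6.19% of all genes tested. DESeq2 called 11 rises and 0 falls in the category. In TPM, 20 of the 29 genes were higher in every 8 dpa library than in any 6 dpa library and 0 were lower, against 12.2% and 7.71% of all genes tested.

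SBE2b-A1 (chromosome 2A, 527773812 to 527795107), of the branching enzyme class typical of cereal endosperm, had 83.4, 112 and 55.1 TPM at 8 dpa, against 30.7, 17.1 and 18.4 TPM at 6 dpa (log2 fold change 1.79, standard error 0.43, edgeR adjusted p = 0.0207). Its B copy had 89.8, 106 and 55.2 TPM at 8 dpa, against 34.8, 34.6 and 28.6 TPM at 6 dpa, and did not pass (log2 fold change of SBE2b-B1 1.29, edgeR adjusted p = 0.0637). In both copies the lowest 8 dpa library, replicate 3, still lay above the highest 6 dpa library. The call of SBE2b-A1 was lost without 8 dpa replicate 2 or 6 dpa replicates 2 or 3, and SBE2b-B1 gained one without 6 dpa replicate 1.

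SBE2a was the more abundant class 2 enzyme at both ages. SBE2a-A1 had 169, 204 and 111 TPM at 8 dpa, against 68.4, 72.3 and 74.5 TPM at 6 dpa (log2 fold change 1.13, standard error 0.29, edgeR adjusted p = 0.0337), and SBE2a-B1 had 115, 143 and 79 TPM at 8 dpa, against 47.5, 49.8 and 46.9 TPM at 6 dpa (1.18, standard error 0.32, edgeR adjusted p = 0.0459). The 6 dpa libraries lay close together and the 8 dpa libraries apart. The call of SBE2a-A1 was lost without 8 dpa replicates 1 or 2 or 6 dpa replicates 2 or 3, and that of SBE2a-B1 without any 8 dpa library or without 6 dpa replicates 2 or 3.

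The class 1 branching enzyme genes lie side by side on chromosome 7B. SBE1.2-B1 (706930398 to 706949832) had 8.42, 10.4 and 5.72 TPM at 8 dpa, against 1.88, 1.74 and 1.91 TPM at 6 dpa, a rise of 2.09 (standard error 0.34, edgeR adjusted p = 0.00105) that held without any single library. SBE1.3-B1 (706994302 to 707000075) had 11.5, 12.8 and 8.88 TPM at 8 dpa, against 5.29, 5.14 and 4.47 TPM at 6 dpa (log2 fold change 1.1, standard error 0.22, edgeR adjusted p = 0.00524). Their neighbour SBE1.1-B1 (706920175 to 706925374) had a log2 fold change of 0.68 and did not pass (edgeR adjusted p = 0.268). On 7A the model of SBE1.1-A1 (715567745 to 715597915) spans that of SBE1.2-A1 (715576446 to 715589295). Their log2 fold changes of 0.51 and 1.17 did not pass (edgeR adjusted p = 0.508 and 0.0711). How well reads were divided among the class 1 genes was not tested.

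Of the starch synthases, which add glucose to the growing chains, SS1, SS2a and SS3a were measured higher at 8 dpa without passing the test. SS2a-A1 had 99.1, 124 and 72.3 TPM at 8 dpa, against 43, 40.4 and 38.6 TPM at 6 dpa, with a log2 fold change of 1.22 (standard error 0.36, edgeR adjusted p = 0.071), and SS2a-B1 had 98.4, 133 and 78.1 TPM at 8 dpa, against 42.2, 38.8 and 40.4 TPM at 6 dpa, with 1.3 (standard error 0.39, edgeR adjusted p = 0.0756). Neither overlapped between the ages. DESeq2 with all libraries called SS2a-A1 at an adjusted p of 0.0191, and over its alternatives the adjusted p ran between 6.33e-07 and 0.249. SS3a-A1 and SS3a-B1 had log2 fold changes of 1.09 and 0.94, and SS1-A1 and SS1-B1 of 0.79 and 1.08 (edgeR adjusted p between 0.0738 for SS3a-A1 and 0.204 for SS1-A1).

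None of the remaining members of the category passed the test. The debranching enzyme genes ISA1 and ISA2, which trim branches that hinder packing, had log2 fold changes between 0.53 for ISA2-A1 and 0.88 for ISA1-A1. ESV1, a protein of the granule matrix, was level in both copies (0.02 for ESV1-A1 and 0.01 for ESV1-B1), and LESV had 0.70 for LESV-A1 and 0.51 for LESV-B1. SS2b, SS2c and SS3b, which stayed below 3 TPM, had log2 fold changes between -0.62 for SS2b-B1 and 0.12 for SS3b-A1.

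For amylose synthesis no gene of 5 was a DEG in edgeR, where 3.07% of all genes tested were. At an unadjusted p under 0.05, 3 of the 5 were higher, against 10.4% of all genes tested, and DESeq2 called 1 rise. GBSS1-A2 (chromosome 4A, 683742118 to 683744921), a granule-bound starch synthase, had 144, 236 and 132 TPM at 8 dpa, against 67.6, 53.1 and 39.4 TPM at 6 dpa, and its log2 fold change was 1.59 (standard error 0.47, edgeR adjusted p = 0.0676). It passed in DESeq2 with all libraries, at an adjusted p of 0.00893, and without 6 dpa replicate 1 in edgeR, at 0.0316, and over all alternatives the adjusted p ran between 1.95e-06 and 0.266. GBSS1-A1 (chromosome 7A, 32920743 to 32923776) had 90.1, 134 and 74.6 TPM at 8 dpa, against 57.3, 55.5 and 42.6 TPM at 6 dpa (log2 fold change 0.88, edgeR adjusted p = 0.374). The difference between these copies was not tested. The copies of PTST1, which brings GBSS1 to the granule, had log2 fold changes of 0.30 and 0.53.

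Genes of granule initiation, which set the number of granules, showed no DEG among 9 in edgeR, none at an unadjusted p under 0.05 and none in DESeq2. Of all genes tested, 3.07% were DEGs, and 10.4% were higher and 6.19% lower at an unadjusted p under 0.05. With only 9 genes, finding none therefore says little. The log2 fold changes of the 9 genes lay between -0.24 for BGC1-A1 and 0.40 for SS4-A1. BGC1-A1 had 2.53, 2.08 and 1.68 TPM at 8 dpa, against 1.5, 3.19 and 2.88 TPM at 6 dpa, so that the ages overlapped. In none of the 9 genes did the TPM of the ages separate, where 12.2% of all genes tested were higher and 7.71% lower without overlap. As a category the 9 genes held 0.00244% ± 0.000478 of TPM at 8 dpa and 0.0022% ± 0.000481 at 6 dpa (SD, n = 3 each; exact permutation test, two-sided, p = 0.5).

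In MOS metabolism the plastidial starch phosphorylase PHS1 accounted for both DEGs among 9 genes, where 3.07% of all genes tested were DEGs. PHS1-A1 had 62.4, 74.9 and 38.6 TPM at 8 dpa, against 23, 18.4 and 17.6 TPM at 6 dpa (log2 fold change 1.49, standard error 0.37, edgeR adjusted p = 0.0271). PHS1-B1 had 106, 119 and 65.2 TPM at 8 dpa, against 41.4, 36.2 and 32.1 TPM at 6 dpa (1.33, standard error 0.36, edgeR adjusted p = 0.0433). The ages were apart in both copies, but either call was lost without 8 dpa replicates 1 or 2 or 6 dpa replicates 2 or 3. The disproportionating enzyme gene DPE1 had log2 fold changes of 0.76 in its A copy and 0.47 in its B copy, and the cytosolic DPE2 and PHS2.1 had values between -0.03 and 0.30, none of which passed.

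Starch degradation held the widest range of change. Of 23 genes tested, 4 rose and none fell in edgeR, with 8 higher and 4 lower at an unadjusted p under 0.05. Over all genes tested, 2.57% rose and 0.500% fell, and 10.4% were higher and 6.19% lower at that p. The 4 rises of the category were the copies of BAM5.3 and BAM10. BAM5.3 encodes a beta-amylase of the type that barley and wheat store in the grain, and at 6 dpa it was near 0. BAM5.3-A1 (chromosome 5A, 666168210 to 666171829) had 20.2, 117 and 42.4 TPM at 8 dpa, against 0.603, 0.0157 and 0.111 TPM at 6 dpa, a log2 fold change of 7.66 (standard error 1.02, edgeR adjusted p = 0.000153). BAM5.3-B1 (chromosome 4B, 671239476 to 671243631) had 20.8, 156 and 56.1 TPM at 8 dpa, against 0.453, 0.0305 and 0.117 TPM at 6 dpa, a log2 fold change of 8.36 (standard error 1.02, edgeR adjusted p = 7.33e-05). In both copies 8 dpa replicate 2 was highest and replicate 1 lowest, and at 6 dpa replicate 1 was highest. The rise of BAM5.3-A1 was 6.84 on the log2 scale without 8 dpa replicate 2 and 9.95 without 6 dpa replicate 1.

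BAM10, a beta-amylase gene outside that group, rose slightly. BAM10-A1 had 7.92, 8.82 and 6.96 TPM at 8 dpa, against 4.13, 4.45 and 3.90 TPM at 6 dpa (log2 fold change 0.89, standard error 0.16, edgeR adjusted p = 0.00306). BAM10-B1 rose by 0.62 (standard error 0.17, edgeR adjusted p = 0.0468), a call that was lost without any of the 8 dpa libraries or 6 dpa replicates 2 or 3 and with only the 6 libraries. DESeq2 with all libraries gave BAM10-B1 an adjusted p of 0.0211, but its log2 fold change of 0.58 lay just under the fold limit.

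BAM5.1, a close relative of BAM5.3, was measured in the other direction. BAM5.1-A1 had 12.8, 17 and 15.4 TPM at 8 dpa, against 20.9, 30 and 57.1 TPM at 6 dpa (log2 fold change -1.21, edgeR adjusted p = 0.29), and BAM5.1-B1 had 7.75, 10.4 and 9.82 TPM at 8 dpa, against 13.2, 25.3 and 38.2 TPM at 6 dpa (log2 fold change -1.4, edgeR adjusted p = 0.208). The ages did not overlap, yet the 6 dpa libraries were far apart and neither copy passed. With only the 6 libraries in the model BAM5.1-B1 was called, at an edgeR adjusted p of 0.0216, and over its alternatives the adjusted p ran between 3.58e-06 and 0.538. BAM3-B1, under 2 TPM in every library, had a log2 fold change of -1.99 (edgeR adjusted p = 0.0697). Limit dextrinase, a debranching enzyme of germination, had 0.421, 3.32 and 0.745 TPM at 8 dpa, against 0.138, 0.174 and 0.76 TPM at 6 dpa in its A copy LDA-A1, so the ages overlapped. Its B copy LDA-B1 had 0.582, 2.31 and 0.718 TPM at 8 dpa, against 0.235, 0.298 and 0.465 TPM at 6 dpa, without overlap. In both copies 8 dpa replicate 2 was far above the rest. Their log2 fold changes of 2.08 and 1.84 did not pass (edgeR adjusted p = 0.0861 and 0.0518), while DESeq2 with all libraries called both, at adjusted p of 0.0423 and 0.00628.

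The alpha-amylases AMY1, secreted enzymes with many gene copies, were expressed mainly from a pair of loci on 5A and 5B. The 5A gene (TRITD5Av1G228350) had 312, 150 and 135 TPM at 8 dpa, against 84.3, 121 and 128 TPM at 6 dpa, and the 5B gene (TRITD5Bv1G227200) had 139, 83.7 and 56.6 TPM at 8 dpa, against 36.9, 54 and 52.2 TPM at 6 dpa. For these genes 8 dpa replicate 1 was highest, in contrast to the starch synthesis genes, and the lowest 8 dpa library barely passed the highest 6 dpa library. Neither was a DEG, with log2 fold changes of 0.82 and 0.94 (edgeR adjusted p = 0.733 and 0.599). Of the 15 AMY1 genes, 6 were tested, none was called by edgeR or DESeq2 with all 24 libraries, and 0 were higher and 1 was lower at an unadjusted p under 0.05. Over all genes tested edgeR called 3.07%, and 10.4% were higher and 6.19% lower at that p, so counts among 6 genes say little. TRITD7Bv1G160880, under 3 TPM in every library, was called as lower at 8 dpa by limma with all libraries, by edgeR with the replicate block on the 6 libraries (adjusted p = 0.0285) and by DESeq2 on the 6 libraries (adjusted p = 0.00142). The last of these fits also called the 5A and 5B genes as higher, at adjusted p of 0.0179 and 0.00231.

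Transport of sugars over the plastid envelope and the phosphorylation of starch showed no DEG, where 3.07% of all genes tested were DEGs. At an unadjusted p under 0.05, 10.4% of all genes tested were higher and 6.19% lower. The absence of a DEG among so few genes therefore says little. The 8 transporter genes (maltose transporter MEX1, glucose transporter pGlcT and the glucose 6-phosphate translocators GPT1 and GPT2) had log2 fold changes between -0.15 for GPT2-A1 and 0.53 for MEX1-A1, with 2 higher at an unadjusted p under 0.05 and 0 called by DESeq2. The 11 genes of reversible phosphorylation, glucan water dikinases and phosphatases, had a median log2 fold change of 0.03. Among them, 1 was higher and 1 was lower at an unadjusted p under 0.05, and DESeq2 called 1 rise, GWD1.1-A1, which stayed under 0.03 TPM in every library. The qRT-PCR reference gene ATG8d-B1 had 452, 404 and 417 TPM at 8 dpa, against 385, 428 and 509 TPM at 6 dpa (log2 fold change -0.06, edgeR adjusted p = 0.858), so the ages overlapped.

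Durum wheat carries A and B copies (homeologs) of most of these genes, and the balance of some pairs was measured differently at the 2 ages. Of 41 pairs with at least 2 TPM in all 6 libraries, the share of the A copy was higher in every 8 dpa library than in any 6 dpa library in 12 pairs and lower in 8. The same count was not made over homeolog pairs outside the starch list. Whether starch-related pairs differ from other pairs in this is therefore not known. The A copy of AGPS1 made up 45.7%, 46.4% and 44.9% of the pair's TPM at 8 dpa, against 36.1%, 32.2% and 35.2% at 6 dpa. For cAGPL it was 19.5%, 23% and 19.9% at 8 dpa, against 15.0%, 13.7% and 15.8% at 6 dpa, so the B copy stayed the main source. The largest shift towards B was in SBE1.2, where the A copy held 55.0%, 54.8% and 56.5% at 8 dpa, against 71.3%, 71.0% and 67.1% at 6 dpa. The A copy of AGPS2 held 45.1%, 42.7% and 44.4% at 8 dpa, against 50.8%, 53.6% and 51.2% at 6 dpa. The A shares of the cytosolic and the plastidial small subunit thus moved in opposite directions. Their levels did not, since AGPS2 with its copies summed had a log2 fold change of 0.19 (edgeR adjusted p = 0.657). These shares are a description without a test, since kallisto divides the reads that copies have in common. With copies summed, the pairs of AGPS1, cAGPL, pAGPL, BT1.1, SBE1.2, SBE2a, SBE2b, PHS1, BAM5.3 and BAM10 were among 11 rises, and 0 fell in edgeR. Summed BT1.1 had a log2 fold change of 1.84 (standard error 0.49, edgeR adjusted p = 0.0426) and summed SBE2b of 1.53 (standard error 0.40, edgeR adjusted p = 0.0386), so the pairs passed where only their A copies did alone.

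**Figure D4:**
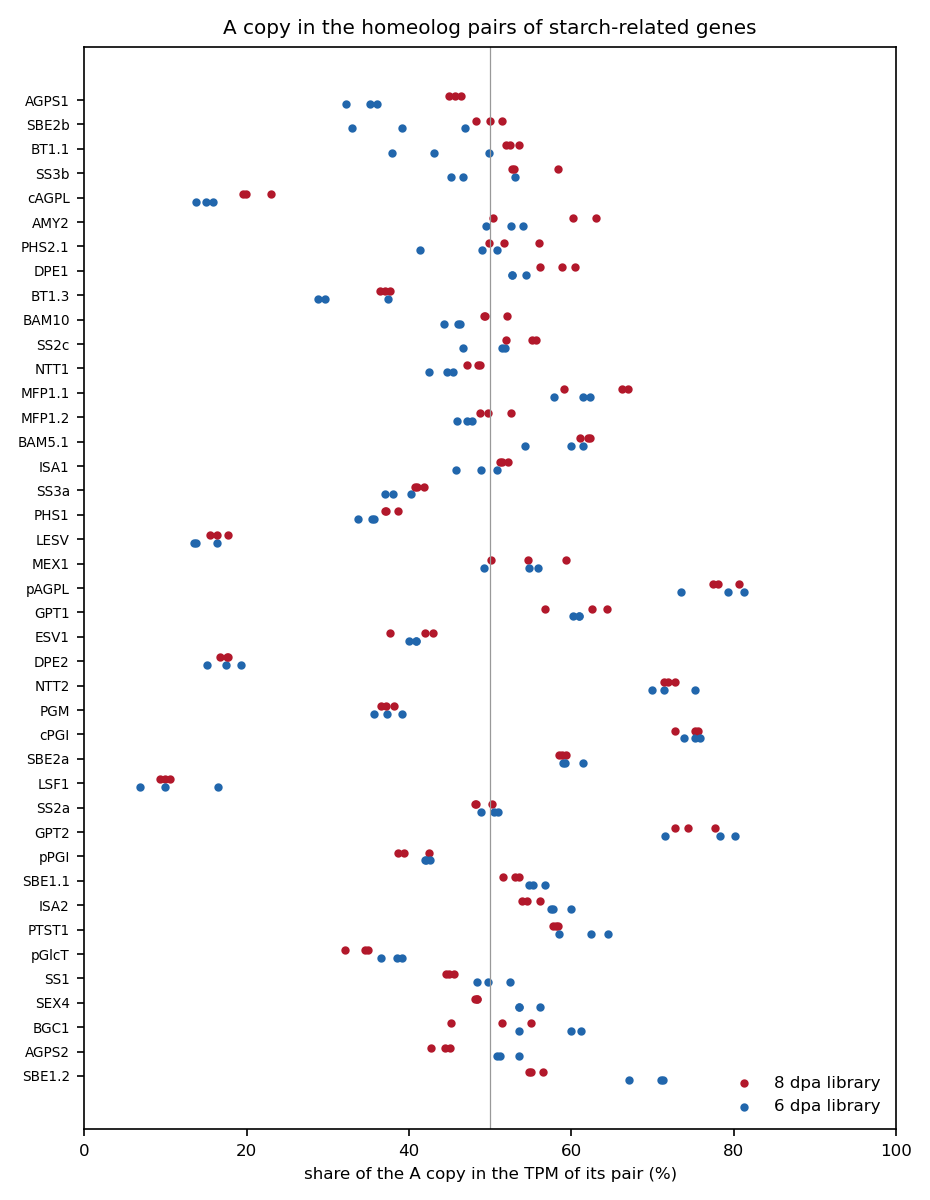
Each row is a homeolog pair of starch-related genes and the x axis is the share of the A copy in the TPM of the pair in percent, with a red point for each 8 dpa library above a blue point for each 6 dpa library, and a line at 50%. AGPS1 at the top shifted towards A and SBE1.2 at the bottom towards B, while pairs in the middle, such as DPE2, differ by little.

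Most DEGs were not starch-related, and the files do not pair their identifiers with products, so 2 of each direction are given by position. TRITD1Av1G002230 (chromosome 1A, 4891405 to 4892007) had 16.2, 482 and 165 TPM at 8 dpa and no count in any 6 dpa library (edgeR adjusted p = 1.52e-05). Its mean CPM at 8 dpa was at least 3870-fold higher than a floor of 3 counts per 6 dpa library, and at least 1730-fold higher without 8 dpa replicate 2. TRITD1Bv1G001950 (chromosome 1B, 4543310 to 4543921) had 1.1, 53.7 and 18.3 TPM at 8 dpa and also no count at 6 dpa, at least 438-fold higher than that floor and 191-fold without 8 dpa replicate 2 (edgeR adjusted p = 0.000245). In both, 8 dpa replicate 2 was highest and replicate 1 lowest, the order seen in BAM5.3.

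Other DEGs also had very large rises. Of the DEGs, 76 rose by at least 6 on the log2 scale, and 35 of them had 0 counts in all 6 dpa libraries. In 69 of the 76, 8 dpa replicate 2 was the highest of its age, as in 918 of all 1135 DEGs that rose. Their summed TPM was 1850, 12700 and 4840 in the 8 dpa libraries, against 68.6, 3.08 and 10.8 in the 6 dpa libraries. Low levels at 6 dpa and high ones at 8 dpa follow from the cut on the fold change, so these values do not show that the genes belong together. The 76 genes lay on every chromosome, with 9 on 7B, 8 on 1A, 7 on 6A and 12 unplaced. Runs of at least 5 risen DEGs, each less than 500000 bases from the next, occurred at 3 places. Each run was drawn from its first to its last risen DEG. A share of risen genes above the 2.57% of all genes tested, and higher sums at 8 dpa, therefore follow from the rule. On 1A between 4613285 and 5048723, 6 of 9 genes tested rose, with a summed TPM of 315, 2470 and 910 at 8 dpa, against 7.69, 0.642 and 3.07 at 6 dpa. On 6A between 23634658 and 24342853, 5 of 6 genes tested rose, and their sum was 27.6, 358 and 153 TPM at 8 dpa, against 0.225, 0.237 and 0.932 TPM at 6 dpa. The third run, on 7B between 681790721 and 682620678, held 5 risen DEGs among 13 genes tested, with milder changes of 1.88 to 3.88 on the log2 scale. The limits that define these runs and the 76 genes, like the TPM minimum for pairs and the length classes, were chosen after the values were seen, and neighbours with similar sequence may share reads.

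DEGs lay on every chromosome. The share of genes tested that rose lay between 2.22% on 1B and 5A and 3.14% on 4B, with 3.47% of the unplaced genes. The share that fell lay between 0.334% on 4A and 0.75% on 7A. The A subgenome had 2.5% of genes rising and 0.48% falling, and the B subgenome 2.58% and 0.524%.

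Among the genes that fell, TRITD6Bv1G046170 (chromosome 6B, 131667478 to 131667818) had 3.02, 8.2 and 6.65 TPM at 8 dpa, against 101, 264 and 306 TPM at 6 dpa, a log2 fold change of -5.04 (standard error 0.54, edgeR adjusted p = 0.00162). DESeq2 with all libraries did not call this gene, at a log2 fold change of -5.09 and an adjusted p of 0.649, and the cause was not tested. TRITD6Av1G004360 (chromosome 6A, 10377806 to 10378175) had 0.573, 0.959 and 1.06 TPM at 8 dpa, against 14.9, 52 and 39.3 TPM at 6 dpa (log2 fold change -5.2, standard error 0.71, edgeR adjusted p = 0.00265). In both, 6 dpa replicate 1 was the lowest of its age. These transcripts are short, 240 and 279 bases, and short transcripts were more frequent among falls in general. Of the transcripts tested of at most 300 bases, 1.33% fell, against 0.249% of those over 2000 bases. The median length was 909 bases for genes that fell, 1119 for genes that rose and 1167 for all genes tested. The mean fragment length implied by the ratio of estimated count to TPM was 270.4, 266.8 and 282.1 bases in the 8 dpa libraries, against 273.3, 252.1 and 276.3 bases in the 6 dpa libraries, so that transcripts this short are near the size of a fragment, and the part of fragment size in these falls was not tested.

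The DEGs were followed over the whole time course as a description, since it shares the 6 and 8 dpa libraries with the comparison. The genes that rose had a median of 1.45 TPM at 6 dpa and 4.86 at 8 dpa, which reached 9.81 by 10 dpa and 11.8 by 13 dpa before declining to 5.31 by 30 dpa. By mean TPM only 41 of the 1135 peaked at 8 dpa, while 263 peaked at 10 dpa and 516 at 13 dpa. On TMM-scaled counts per unit of depth (CPM), the peak came later, with 306 genes highest at 18 dpa and 348 at 30 dpa. The median of the genes that fell was 6.69 TPM at 6 dpa, then 1.94 at 8 dpa and 0.629 by 10 dpa, and 179 of the 221 were highest at 6 dpa. BAM5.3-A1, at mean levels of 0.243 TPM (6 dpa) and 59.9 TPM (8 dpa), reached 1090 TPM by 10 dpa and 4540 TPM by 30 dpa. AGPS1-A1, at 31.7 TPM (6 dpa) and 204 TPM (8 dpa), reached 726 TPM by 10 dpa and 799 TPM by 13 dpa. The 5A gene of AMY1 (TRITD5Av1G228350) had its highest mean, 199 TPM, at 8 dpa, after 111 TPM (6 dpa), and was down to 70.1 TPM by 10 dpa and 4.27 TPM by 13 dpa.

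**Figure D5:**
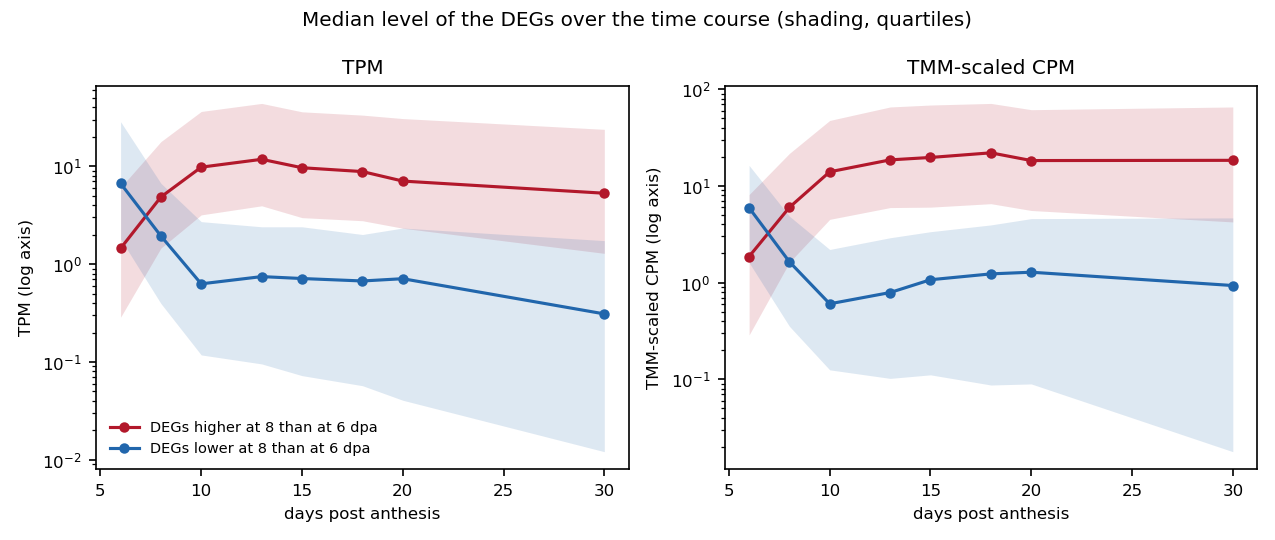
The x axis is days post anthesis and the y axis is the median level of the 1135 DEGs higher (red) and the 221 DEGs lower (blue) at 8 than at 6 dpa, in TPM on the left and TMM-scaled CPM on the right, both on log axes, with quartiles shaded. The red median kept rising after 8 dpa to 11.8 TPM at 13 dpa, and the blue median fell to 0.629 TPM at 10 dpa.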

How the data were processed

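Poly-A RNA of dissected Kronos endosperm was sequenced by the study in 24 libraries, of which 3 of 8 dpa and 3 of 6 dpa were compared. The authors used kallisto (0.46.1 in the submitters' processing notes, which also name DESeq2) at default settings on the canonical transcripts of Svevo v1, and deposited the estimated counts, unscaled between libraries. The deposited TPM of the same runs are scaled by effective transcript length to a fixed total. Each transcript stood for its gene. Reads shared by homeologs or paralogs are divided by kallisto, so single copies are less certain than their sum.

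Estimated counts were rounded to whole numbers. A gene needed 10 counts or more in 3 or more of the 24 libraries, which 44240 passed, and the test was the quasi-likelihood test of edgeR 4.0.16 under R 4.3.3 (TMM, timepoint as a factor, 16 residual degrees of freedom, Benjamini-Hochberg adjustment). The contrast was 8 minus 6 dpa, and DEGs needed an FDR of at most 0.05 and a fold over 1.5 (log2 0.585). Before TMM scaling, 1 CPM unit stood for 60.1 to 71.6 counts in the 6 libraries. Their TMM factors ran from 1.546 to 1.832, so a TMM-scaled unit stood for more counts. Shares of TPM, 1 value per library, were compared by exact permutation (20 arrangements). Errors are SD of 3 replicates, from separate plants, or standard errors of edgeR. Positions, copied from the annotation of Svevo.v1, were found for 130 of the 134 genes listed by name. Lists by product name could not be used, since no product names were at hand. Tables and figures used Python 3.11.15, scipy 1.17.1 and matplotlib 3.10.9.

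Alternatives were DESeq2 1.42.0, other scalings, filters and fold limits, fewer libraries, a replicate block, summed homeologs and limma 3.58.1 on log2(TPM + 0.1) or log2(TPM + 1). In a simulation of 8 against 6 dpa over 44240 genes, edgeR found 20 of the 100 genes set to differ 2-fold and 50 of the 100 set to differ 4-fold, with 5 false calls, and DESeq2 found 31 and 55 with 33 false calls. Limma found 34 and 66 with 272 false calls on all libraries, and 0 and 4 with 0 false calls on the 6 libraries alone. The simulation drew each gene independently, without shifts shared by the genes of a library, and gave limma log2(CPM + 1) in place of TPM. It ran edgeR and DESeq2 only on all libraries. It therefore cannot rank the tools on these data, and the limma counts are given without a judgement between them.

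Named were all starch-related genes, the AMY1 genes, ATG8d-B1 and, of genes without a name, the 2 that rose and the 2 that fell by the largest fold, if their mean reached 10 TPM at either age and their TPM did not overlap. Members, lists and tests were chosen with earlier results of these data known.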

Additional observations from a re-analysis of the deposited data

How the results depend on the processing

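No DEG was called in the opposite direction under any alternative run over all genes. The 1356 DEGs (1135 rises, 221 falls) became 2332 in DESeq2, with 696 falls, and 726 at an absolute log2 over 1.5, with 576 rises. With only the 6 libraries 795 fell. Limma on all libraries gave 597 falls at log2(TPM + 0.1), 769 at log2(TPM + 1) and 642 with no filter. Added after the data or the simulation were seen, DESeq2 with only the 6 libraries gave 3914 DEGs (1845 rises, 2069 falls), and limma with only the 6 libraries gave 75 (43 and 32) at log2(TPM + 0.1), 38 (21 and 17) at log2(TPM + 1) and 0 (0 and 0) with no filter, at 6693 genes with an unadjusted p under 0.05 in the last. Leaving out single libraries gave 598 to 1966 DEGs, 537 to 1536 rises, 61 to 430 falls, 9 to 26 starch-related rises and 0 starch-related falls. The 18 rises among starch-related and AMY1 genes became 28 in DESeq2 and with only the 6 libraries, 9 at an absolute log2 over 1.5, 40 in DESeq2 with only the 6 libraries, and 0 in limma with only the 6 libraries in its 3 forms. With homeologs summed the rises numbered 11, but there a pair counts as 1, so this number cannot be set against the 18 single copies. Every pair with a copy among the 18 was called when summed. Falls among starch-related and AMY1 genes, 0 in the main model, were 1 in DESeq2 and 3 with only the 6 libraries. Limma gave 2 at log2(TPM + 1) and 1 with no filter, and DESeq2 with only the 6 libraries gave 4. The AMY1 gene TRITD7Bv1G160880 was among these falls in both limma fits and in DESeq2 with only the 6 libraries. The deviations of same-numbered libraries from their group means had r of -0.02, -0.0453 and -0.0647, against -0.0472 to 0.0834 for libraries of different number. The deviations of 3 libraries sum to 0 in each gene, and the labels do not give the plants. Whether libraries shared a plant can therefore not be told from these values. The replicate block gave 1125 rises and 228 falls in the model of 24 libraries, and 749 rises and 487 falls with only the 6 libraries. In the latter, 3 starch-related or AMY1 genes fell, TRITD7Bv1G160880 among them. Unscaled library totals shifted the median log2 fold change of all genes to -0.1, with 863 rises and 239 falls. The difference in the share of all starch-related genes, 0.231 percentage points of TPM, was 0.772 of estimated counts and 0.172 to 0.281 without single libraries. The 100 most abundant transcripts held 24.2% ± 1.61 of TPM at 8 dpa and 26.2% ± 3.39 at 6 dpa, a difference of -2.01 points (exact permutation test, two-sided, p = 0.5), which was 0.858 on estimated counts and -3.27 to -0.0781 without single libraries. The cause of these shifts was not tested. The limits set by depth and by the spread between replicates were not separated.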
